A study of Mus musculus with 15 samples.

Results

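The genes described here are the semaphorins, the plexins and the neuropilins of the embryonic mouse dorsal forebrain. They were taken by symbol, as all protein-coding genes whose name starts with Sema and a digit or with Plxn, plus Nrp1 and Nrp2, which gave 31 of the 53337 genes in the table. The set was chosen by a measured value as well: Plxna1 was lower with arginine vasopressin (AVP) in males. The male comparison is therefore given as a description of these genes, with no test of them. The set holds 9 plexins, 2 neuropilins, 7 secreted semaphorins, 12 transmembrane semaphorins and 1 GPI-anchored semaphorin, and 3 antisense genes with such names were left out.

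C57BL/6J dams received AVP or saline by subcutaneous osmotic minipump through gestation, as a model of preeclampsia, and the labels call the saline condition vehicle. Dorsal forebrain, the precursor of the cortex and hippocampus, was taken from their offspring at embryonic day (E) 18 and sequenced as stranded mRNA libraries. By their labels there were 4 AVP males (libraries 1, 2, 8 and 9) and 4 saline males (4, 5, 12 and 13). There were also 3 AVP females (3, 10 and 11) and 4 saline females (6, 7, 14 and 15). Libraries are named by the number in each label. An AVP female that the study excluded is not analysed here. The study names the strain of the dams, and neither its text nor the labels give a sire strain or another genotype. The groups differed by maternal treatment and by sex, and the 2 treatments came from different dams. Brains outnumbered litters. The study gives the brains within a treatment and sex as coming from independent litters, so males and females of a treatment can share litters. The labels do not tie a library to its litter, so no comparison was paired by litter. The tests measure the spread between libraries.

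Semaphorins are guidance ligands, either released or held on the cell surface, that turn growth cones and migrating cells away from or towards a source. Plexins are their receptors, whose inner part acts on small GTPases and through them on the cytoskeleton. Most secreted semaphorins bind a neuropilin, which pairs with a plexin of the A class to pass the signal on. In the embryonic forebrain the families are known for steering callosal and corticofugal axons, orienting dendrites, sorting interneurons and shaping blood vessels.

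Values are in TPM, a transcript abundance corrected for transcript length and scaled to the same total in every library, summed over the transcripts of a gene. TPM carry no read counts, so the depth behind each value is unknown. The library labelled saline male 12 had Xist at 266 TPM and 4 Y-linked genes at 0.489 TPM in sum. The other 7 libraries labelled male had Xist between 0.121 and 1.13 TPM and the Y-linked sum between 102 and 155 TPM. The libraries labelled female had Xist between 174 and 294 TPM and the Y-linked sum between 0.25 and 1.01 TPM. On both measures saline male 12 thus lay within the female range. It was kept under its label. The differences, tallies and shares that rest on the saline males are also given without it on unscaled summed TPM, and the other sums, scalings and transcript classes were not run without it. Cortical neuron markers summed to 2833 to 3649 TPM in the 15 libraries, of which Tubb3, a gene of neurons in general, held 1696 to 2435 TPM. The other 7 cortical markers summed to 971 to 1326 TPM, against 147 to 291 TPM for ventral forebrain and 21 to 44.7 TPM for thalamus markers. Choroid plexus markers ranged from 3.33 to 2259 TPM, and were at 574 TPM or more in AVP male 1, saline males 4 and 5, AVP females 3 and 11 and saline female 7 and at most 27.3 TPM in the rest. The 31 genes together made up 808 to 1315 TPM per library.

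Levels in the next paragraphs are sums over all models of a gene, noncoding ones included, and their order depends on that choice. On this sum Plxna3 had the highest mean of all 31 genes. With protein-coding transcripts alone it ranked 5, at 44.6 TPM, and Sema7a was highest at 57.5 TPM. Plxna3, the plexin best known as the Sema3f receptor with Nrp2, averaged 114 TPM over the 15 libraries, with a range of 58.4 to 161 TPM. Plxnb2, a receptor for class 4 semaphorins in neural progenitors, averaged 76.2 TPM, and Plxnd1, the Sema3e receptor of vessels and some axons, 61.7 TPM. Plxna2, Plxna1 and Plxnb1 followed at 53.6, 52.6 and 46.9 TPM, and their ranges over libraries overlapped. Plxna4 averaged 33 TPM and Plxnc1, the Sema7a receptor, 12.7 TPM. Plxnb3 was near 0, between 0.0792 and 0.434 TPM. Nrp1, the coreceptor for Sema3a, averaged 45.3 TPM and Nrp2, the coreceptor for Sema3f, 21.8 TPM.

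Of the secreted ligands, Sema3f stood highest at a mean of 65.3 TPM, ahead of Sema3c at 26 TPM and Sema3a at 15 TPM. When TPM were weighted by transcript length, Sema3c (78.9) stood above Sema3f (61.9). The other 4 (Sema3e, Sema3b, Sema3g and Sema3d) averaged between 1.47 and 2.01 TPM. The transmembrane ligands were led by Sema6c at 102 TPM, followed by Sema4c at 60.8 TPM and Sema4g at 59.9 TPM. With protein-coding transcripts alone the order turned, with Sema4c at 54.4, Sema4g at 40.5 and Sema6c at 37.4 TPM. Below them came Sema6b, Sema4d, Sema4a, Sema4f, Sema6d, Sema5b, Sema6a and Sema4b, between 11.2 and 28.3 TPM, and Sema5a at 5.18 TPM. Sema7a, which is anchored by a lipid and also binds integrins, averaged 59 TPM. Of the whole set, 25 of 31 genes averaged at least 10 TPM and 5 averaged under 5 TPM.

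**Figure D1:**
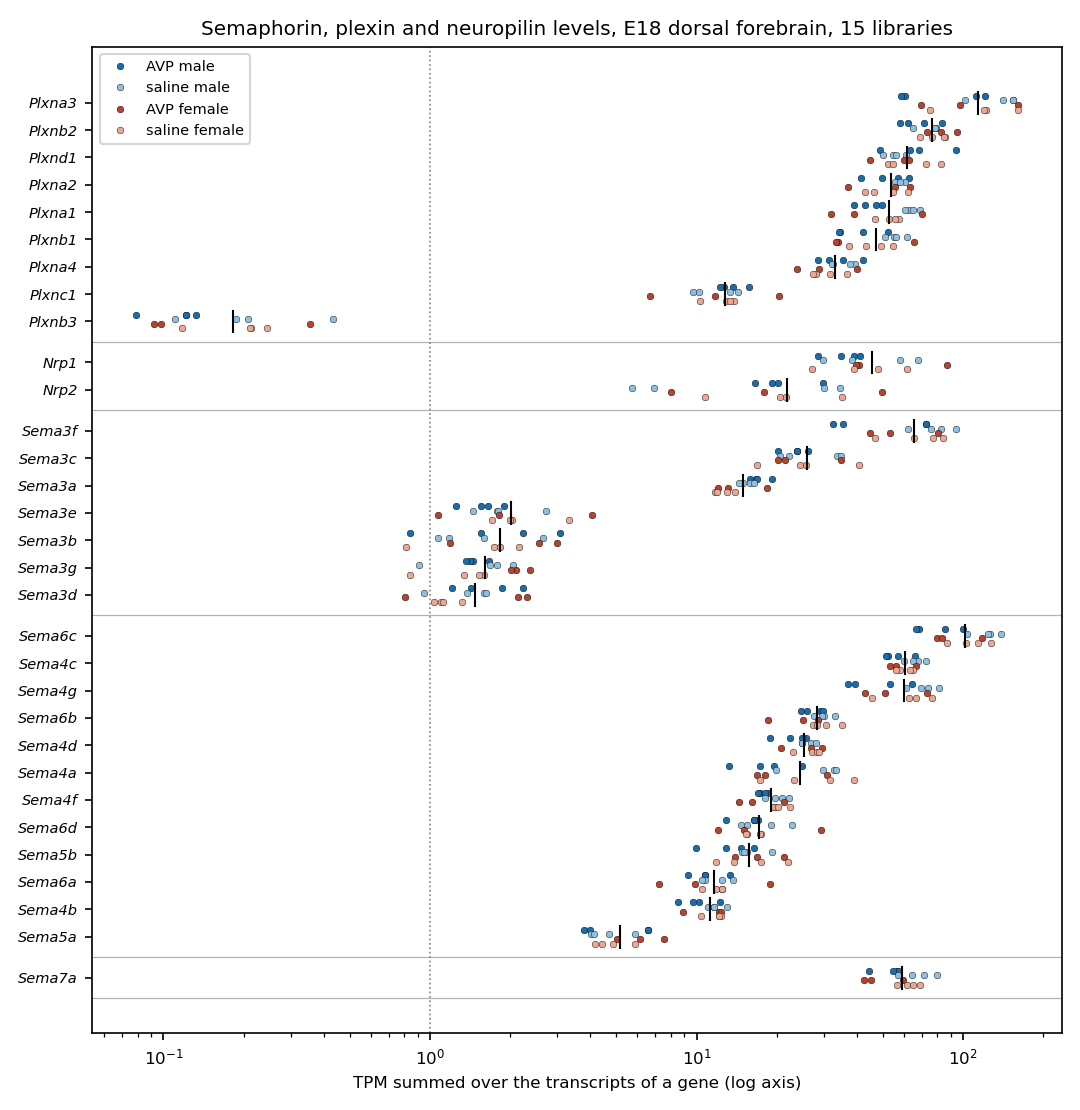
Each point is the summed TPM of a gene in a library (log axis) by group, with a black bar at the mean over 15 libraries and a dotted line at 1 TPM. Plxnb3 lies to the left of the dotted line in all libraries, 4 secreted semaphorins lie around 1 to 4 TPM, and Plxna3 and Sema6c lie furthest to the right.

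Plxna1 encodes a receptor used by Sema3a together with Nrp1 and by class 6 semaphorins. It lies on the minus strand of chromosome 6 (GRCm38, 89316314 to 89362620). In AVP males it was measured at 39, 49.5, 42.7 and 47.2 TPM, and in saline males at 69, 62.7, 60.8 and 64.7 TPM. The groups did not overlap, with means of 44.6 ± 4.65 and 64.3 ± 3.53 TPM (SD, n = 4 each). The difference was -0.53 on the log2(TPM + 0.5) scale, with an SE of 0.09. Since this value chose the set, it carries no test here. Without the library labelled saline male 12 it was -0.55. Sample codes in the labels run from S1 to S8 for libraries 1 to 7 and from S13 to S20 for libraries 8 to 15. The labels do not state that these low and high runs of codes are batches or an order in time. Within these runs, of 2 against 2 libraries each, the difference was -0.58 and -0.48.

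AVP females held 38.9, 70 and 31.9 TPM of Plxna1 and saline females 57.3, 46.9, 55.4 and 52.6 TPM. AVP female 10 was above, and the other 2 AVP females were below, every saline female. The log2 difference was -0.25 with an SE of 0.24 (limma, adjusted p = 0.999). Leaving out AVP female 11 gave -0.02 and leaving out AVP female 10 gave -0.58, so that single libraries set the size of the female value. Whether the female and male differences differ was not tested.

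The Plxna1 sum has 2 main parts. The long coding transcript Plxna1-202 (9034 bases) held 71.2% of the gene's mean TPM, and Plxna1-206, a 372-base model annotated as retaining part of an intron, held 25.2%. In AVP males the coding transcripts came to 34 ± 2.76 TPM and the retained-intron model to 8.41 ± 3.44 TPM. In saline males they came to 42.5 ± 3.33 and 19.6 ± 4.25 TPM (SD, n = 4 each). Neither part overlapped between the groups, and the short model differed by the larger share of its level. Of the 372 bases of Plxna1-206, 352 also lie in coding transcripts and 20 are its own. Those 20 bases are the end of intron 29 of Plxna1-202 (chromosome 6, 89321070 to 89322442).

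The junctions that tell such models from spliced coding transcripts are printed for Plxna1 and Sema6c because part of these genes' TPM sits in them. Each is read 5′ to 3′ in the sense of the transcript from GENCODE M21 sequences (GRCm38), with exon bases in lower case and intron bases in capitals, and each spans 15 bases on either side of a border. The Sema6c intron lies on the plus strand (chromosome 3, 95171390 to 95171557) and is held whole by Sema6c-204.
Plxna1 exon 29 to exon 30, spliced: ctggaagagcaattgcctgcctctgcgctt
Plxna1 intron 29 into exon 30: CCTGCTTGTCCACAGcctgcctctgcgctt
Sema6c exon 18 to exon 19, spliced: acggtgactgccaagatggagcgaccggga
Sema6c exon 18 into intron 18: acggtgactgccaagGTAAACACAAGGGAC
Sema6c intron 18 into exon 19: CCCTCCCTCACATAGatggagcgaccggga

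Where the exon enters the intron the capitals open with GT, and where the intron enters the exon they close with AG. Reads that cross from capitals to lower case can come from the retained-intron model and not from the spliced transcript. The share of TPM held by such models differed widely among the genes. It was highest in Plxnd1 (59.6%) and Plxna3 (56.8%), stood at 33.4% in Sema3f, 29.2% in Sema5b, 26.2% in Plxnb1 and 25.6% in Sema6c, and was 0% in Nrp2, Sema3d, Sema3g, Sema4g, Sema6b and Sema7a. In Plxnd1 the 442-base model Plxnd1-204 alone held 46.3% of the gene's TPM with 6 bases of its own. Plxna3-203 has 172 bases of its own among 984, Sema3f-203 has 138 among 581 and Sema6c-204 has 446 among 814.

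Retained-intron models also separated the libraries. Over the 31 genes they held 12.2% to 13.6% of TPM in AVP males 1 and 2, AVP female 3 and saline female 14, and 18.8% to 24.3% in the other 11 libraries. No library fell between these ranges. Over all genes the same 4 libraries were again the lowest, at 3.51% to 4.28% of TPM against 5.19% to 6.78%. These 4 come from 3 of the 4 groups, and 2 of them are AVP males. Their part in the male differences was not tested.

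**Figure D2:**
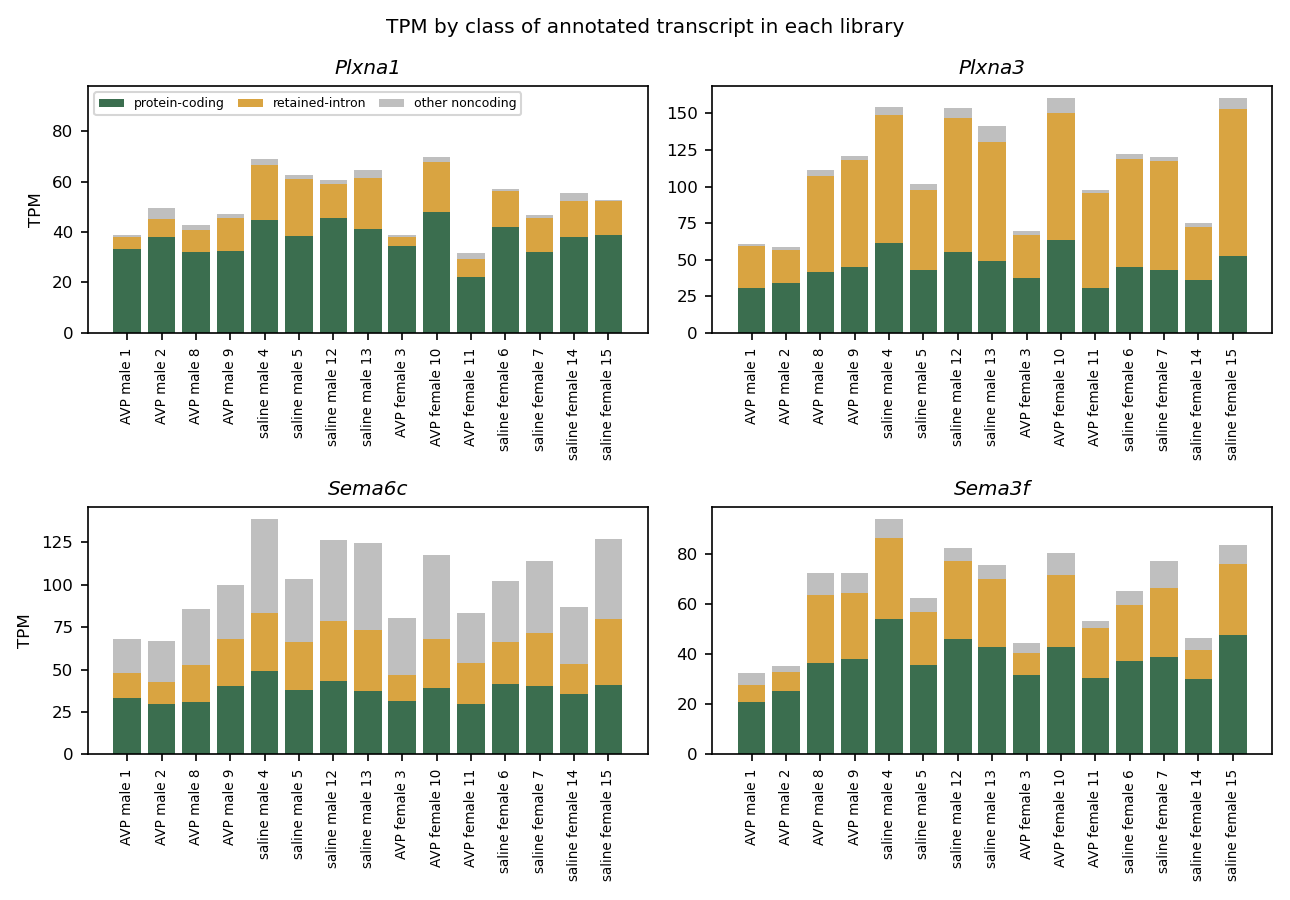
Stacked bars give the TPM of Plxna1, Plxna3, Sema6c and Sema3f in each library by annotated class of transcript, protein-coding, retained-intron or other noncoding. For Plxna3, Sema6c and Sema3f the retained-intron part is smallest in AVP males 1 and 2, AVP female 3 and saline female 14, whereas for Plxna1 saline female 14 is the highest of the saline females, and the protein-coding part varies less in proportion.

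Because a short model raises summed TPM more per read than a long one, each transcript's TPM was also multiplied by its annotated length before summing and rescaled to 1000000 per library. The result stands close to a gene's share of reads, depends little, by its construction, on the division between models, and was chosen after seeing the data. On that scale Plxna1 was 183 ± 14.5 in AVP males and 220 ± 11.5 in saline males (n = 4 each, SD). The log2 difference shrank from -0.53 to -0.26, and the groups still did not overlap, with 203 as the highest AVP male and 204 as the lowest saline male. The male median over all genes moved too, from -0.10 on summed TPM to -0.03. With protein-coding transcripts alone the Plxna1 difference was -0.32, beside a median of -0.07 over all genes. On that sum the highest AVP male (38.1 TPM) stood just below the lowest saline male (38.3 TPM). The AVP males were therefore lower for Plxna1 in each form of the sum, by an amount that depends on how transcripts are added.

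Sema6c was the other member whose male groups did not overlap on summed TPM. AVP males held 68.2, 66.8, 85.6 and 99.8 TPM and saline males 139, 103, 126 and 124 TPM. The means were 80.1 ± 15.7 and 123 ± 14.7 TPM (SD, n = 4 each), a log2 difference of -0.63, and of -0.61 without the library labelled saline male 12. The highest AVP male lay close under the lowest saline male, and with length-weighted sums (-0.29) or protein-coding transcripts alone (-0.32) the groups overlapped. Over all 15271 genes tested in males, AVP males lay entirely below saline males in 6.54% and entirely above in 0.733%. Of the 30 members tested, 2 lay entirely below, Plxna1 and Sema6c, and 0 above. The place of Plxna1 was fixed by the choice of the set, so this count is not read against these shares. Without the library labelled saline male 12 the shares were 7.58% and 1.48%, and again the same 2 members lay below and 0 above. The other sums also set members apart that summed TPM did not, but the share of all genes apart on those sums was not computed. Sema7a was 43.4 to 54.5 TPM in AVP males and 55 to 78.8 TPM in saline males with protein-coding transcripts alone. Sema3a was higher with AVP on the length-weighted scale, at 46.6 to 51.8 against 38.2 to 45.3.

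Plxna3 was measured at 60.5, 58.4, 112 and 121 TPM in AVP males and 154, 102, 153 and 141 TPM in saline males. AVP males 1 and 2 were far below the rest, and the other 2 lay above the lowest saline male. The log2 difference was -0.71 (SE 0.26), -0.43 with length weighting and -0.65 without the library labelled saline male 12. Sema3f behaved in the same manner, with AVP males at 32.4, 35.4, 72.5 and 72.6 TPM and saline males at 94, 62.4, 82.3 and 75.9 TPM. Its log2 difference was -0.64 (SE 0.28), -0.42 with length weighting and -0.62 without that library. Plxnb2 (-0.14, SE 0.12) and Plxnd1 (0.27, SE 0.17) completed the 5 members of highest level, and their groups overlapped. Without that library they stood at -0.12 and 0.27. Sema7a was 53.3 ± 5.97 TPM in AVP males and 68.3 ± 9.85 TPM in saline males, a difference of -0.35 that length weighting left at -0.30 and that was -0.37 without that library.

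Of 30 members tested in males, 23 were lower and 7 higher with AVP by their point estimates, with a median log2 difference of -0.19. The same median over all genes was -0.10, with 26.4% of genes higher. Without the library labelled saline male 12 the counts were again 23 and 7, with a median of -0.14 beside -0.08 over all genes and 30.1% of genes higher. Scaling libraries by the median of ratios moved the all-gene median to 0.003 and the members' median to -0.08, with 10 of 30 members higher, so directions near 0 depend on the scaling. Plxna1 stood at -0.42 and Sema6c at -0.52 under that scaling. The 8 members with at least 20% of TPM in retained-intron models, a limit chosen after seeing the data, had a median of -0.50 and the other 22 a median of -0.16. The 8 include Plxna1, which chose the set, and their median was not computed without that gene. Without that library these medians were -0.51 and -0.10. With length weighting and all libraries the medians were -0.26 and -0.09, beside -0.03 over all genes. A single gene passed the threshold in males, 0.00655% of those tested. It was Mir6392, no member, lower with AVP and named after its value was seen. At an unadjusted p under 0.05 by limma there were 2057 of 15271 genes, 169 of them higher with AVP. Without that library no gene was called, and 1225 of 15051 genes were at an unadjusted p under 0.05, 156 of them higher.

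**Figure D3:**
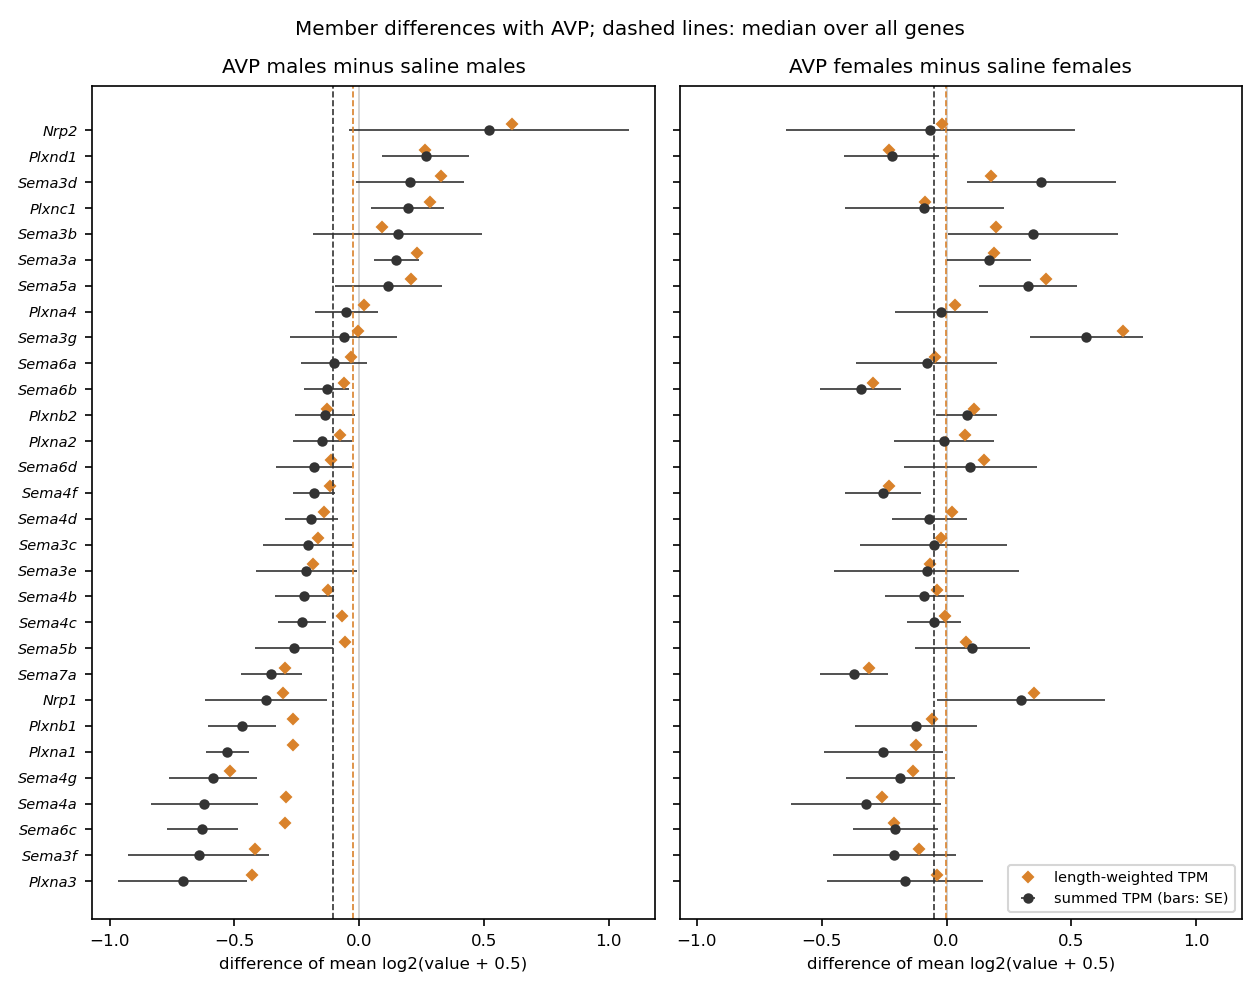
Points give the difference of mean log2(value + 0.5) between AVP and saline for 30 genes in males (left) and females (right), from summed TPM with SE bars and from length-weighted TPM as diamonds, and dashed lines mark the medians over all genes. In males the genes at the bottom, Plxna3, Sema3f, Sema6c, Sema4a and Plxna1, move towards 0 with length weighting, and Sema4g and Sema7a move little.

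The value that chose the set came from the male comparison, though members were chosen with earlier results of these data known. In females none of the 30 members passed the threshold (adjusted p under 0.05 by limma), and none of the 15132 genes tested did (0%). At an unadjusted p under 0.05 there were 683 genes (4.51%), 2 of them members, Sema3g and Sema7a. By point estimates 9 members were higher and 21 lower with AVP, with a median log2 difference of -0.07 beside -0.05 over all genes, of which 36.9% were higher.

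Sema3g, a secreted semaphorin known from endothelial cells, was the one member whose female groups did not overlap on summed TPM. It was measured at 2.1, 2.37 and 2.01 TPM in AVP females and at 1.35, 1.59, 1.53 and 0.844 TPM in saline females. The means were 2.16 ± 0.187 (n = 3) and 1.33 ± 0.339 TPM (n = 4, SD), a log2 difference of 0.56 with an SE of 0.23. The limma adjusted p was 0.999. Over all genes tested, 2.78% had every AVP female above every saline female and 2.77% the reverse, so 1 of 30 members is near the background. In males the gene was 1.47 ± 0.133 TPM with AVP and 1.61 ± 0.489 TPM with saline. Sema3g has a single annotated transcript, and its female difference was 0.71 with length weighting. On that scale Sema5a, a transmembrane semaphorin, was apart as well, at 34.7 to 43.6 in AVP females and 25.7 to 34.5 in saline females. The share of all genes apart on that scale was not computed.

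Markers of several other cell types moved with the same female groups. The 8 endothelial markers summed to 238 to 250 TPM in AVP females and 146 to 225 TPM in saline females, and 7 of 8 were higher with AVP by point estimates. The 9 meningeal fibroblast markers, all higher with AVP, summed to 205 to 296 TPM against 127 to 146 TPM, with a median log2 difference of 0.90. The 6 mural cell markers, again all higher, summed to 87.3 to 95.2 TPM against 62.6 to 80.1 TPM. These 3 sums were apart, as was that of the 5 oligodendrocyte precursor markers, all lower with AVP, at 33.7 to 61.1 TPM against 62.5 to 94.6 TPM. Other lists moved with overlapping sums. The 5 red blood cell markers tested were all higher, with a median of 1.04, and the 4 choroid plexus markers tested were all higher, with a median of 2.14. All 10 ventral forebrain markers were lower, with a median of -0.32. Higher by point estimates were 6 of 8 radial glia markers (median 0.19), 4 of 5 thalamus markers tested (0.27) and 5 of 6 microglia markers (0.17). Cortical neuron markers were split, 4 higher and 4 lower, with a median of -0.02. None of these markers passed the threshold, no endothelial or meningeal marker was at 0 TPM in any library, and their part in the Sema3g values was not tested. In bulk tissue, more cells of a type and more RNA per cell cannot be told apart.

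Sema7a was singled out after its values were seen. AVP females held 59.4, 42.5 and 45.1 TPM and saline females 68.9, 56.4, 61.6 and 65.1 TPM. AVP female 3 lay within the saline range and the other 2 AVP females lay below it. The log2 difference was -0.37 with an SE of 0.14 (limma, adjusted p = 0.999). Within the low run of sample codes the difference was -0.07 (1 against 2 libraries) and within the high run -0.53 (2 against 2). The estimate was also below 0 in males, but those samples chose the set and lend it no test.

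The highly expressed members showed small female differences beside their spread. Plxna3 was 109 ± 46.4 TPM in AVP females and 120 ± 35.1 TPM in saline females. Sema6c was 93.6 ± 20.6 and 107 ± 17.1 TPM, and Sema3f 59.4 ± 18.6 and 68.3 ± 16.3 TPM (SD, n = 3 and 4). Plxnb2 was 83.7 ± 11 and 78.9 ± 7.98 TPM, and Plxnd1 55.8 ± 9.72 and 65.6 ± 14.6 TPM. All 5 had an adjusted p of 0.999 by limma. With Plxna3, the AVP females held 69.5, 160 and 97.4 TPM, and leaving out AVP female 3 turned its difference from -0.17 to 0.11.

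**Figure D4:**
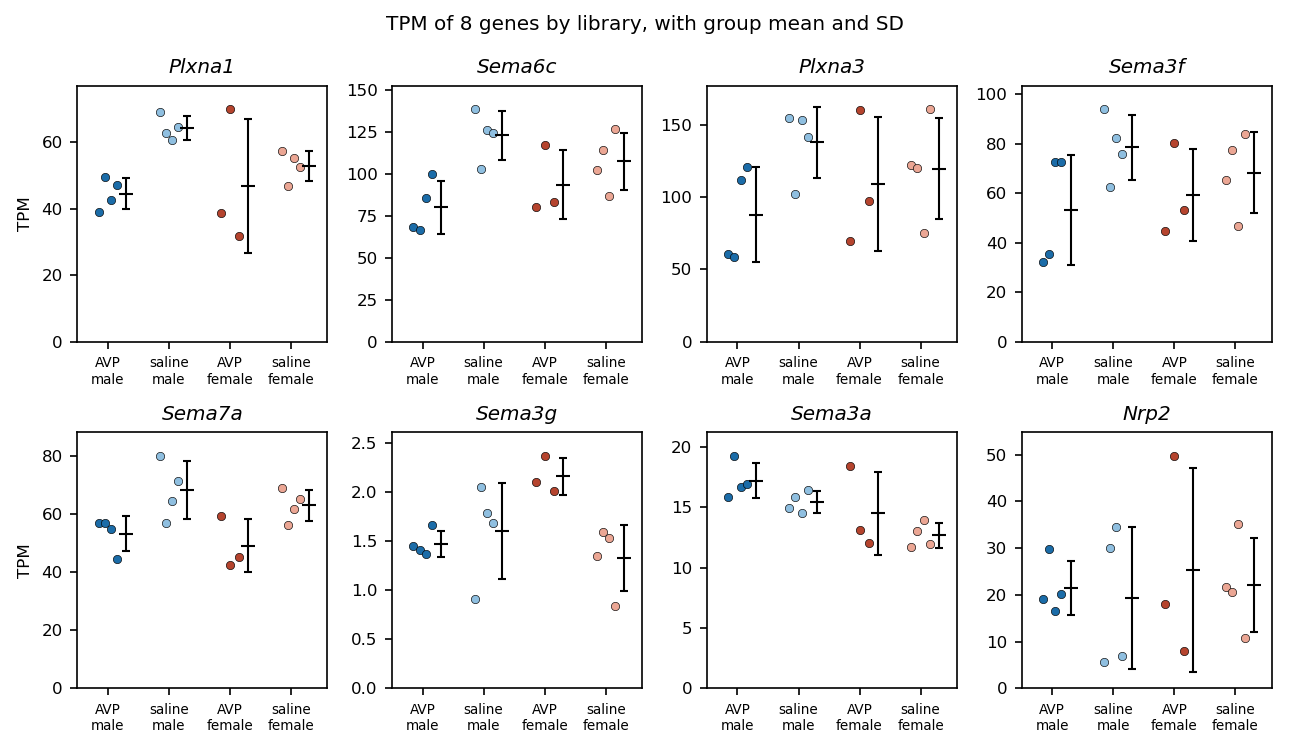
Points give TPM by library for 8 genes in the 4 groups, with the mean and SD beside each group. AVP and saline males are apart for Plxna1 and Sema6c, AVP and saline females are apart for Sema3g, and Nrp2 spreads from 5.72 to 49.8 TPM within the groups.

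Saline females were compared with saline males to ask how the genes stood by sex without AVP. The saline males also serve as controls of the male comparison. No member of the 30 tested was called by limma. At an unadjusted p under 0.05 there were 639 genes (4.15%), Plxnb1 and Sema3a among them. Leaving out saline male 12 by its label gave 385 of 15159 genes, and which members were among them is not given here. Plxna1 is left out of this reading, since the same saline males chose the set through it. A single gene of 15385 was called (0.0065%). It was Gm25291, no member, lower in saline females and named after its value was seen. By point estimates 10 members were higher and 20 lower in saline females, with a median of -0.10 beside -0.04 over all genes. Without that library 15 were higher and 15 lower, with a median of -0.01 beside -0.01, so the lean to lower values rests on it. Saline females lay entirely above saline males in 0.929% of genes and entirely below in 1.54%, and 0 and 2 members did so. The latter count holds Plxna1, which chose the set, and is not read against these shares. Without the library labelled saline male 12 the shares were 1.72% and 2.03%, and the members 0 and the same 2.

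Sema3a, the prototype repellent of cortical axons, was one of them. It was measured at 11.7, 13, 13.9 and 12 TPM in saline females and 14.9, 15.9, 14.5 and 16.5 TPM in saline males. The means were 12.7 ± 1.01 and 15.4 ± 0.891 TPM (SD, n = 4 each), a log2 difference of -0.28 with an SE of 0.09. The adjusted p by limma was 0.928. Without the library labelled saline male 12 the difference was -0.31. With length-weighted sums it was -0.19 and the groups overlapped. AVP males held 17.2 ± 1.45 TPM and AVP females 14.5 ± 3.44 TPM of the gene. Plxna1 was the other, at 53 ± 4.53 TPM in saline females and 64.3 ± 3.53 TPM in saline males, a log2 difference of -0.28. It was -0.30 without the library labelled saline male 12, and with length weighting it was -0.17 and the groups overlapped. Since the same saline males chose the set through Plxna1, this value has no test.

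The neuropilins varied widely between libraries of the same group. Nrp2 spread most of all members above 1 TPM, 8.71-fold from its lowest to its highest library, and is described for that reason after its values were seen. It was measured at 19.1, 29.8, 16.6 and 20.2 TPM in AVP males, 5.72, 30, 34.6 and 6.95 TPM in saline males, 17.9, 49.8 and 8.01 TPM in AVP females and 21.7, 20.6, 35.2 and 10.7 TPM in saline females. No pair of groups was apart, and the SE of the male difference (0.56) was larger than the difference itself (0.52), which was 0.93 without the library labelled saline male 12. The 4 libraries highest in Nrp2 were AVP female 10, saline female 14 and the libraries labelled saline male 5 and 12. These 4 were also the 4 highest of 15 in Nrp1, at 57.9 to 86.7 TPM against 27.1 to 48.1 TPM in the other 11. The same held for Sema3c, a secreted ligand that can use both neuropilins, at 33.7 to 40.6 TPM against 16.9 to 26.1 TPM. Over the same 4 libraries radial glia and progenitor markers summed to 2428 to 3092 TPM against 1863 to 2699 TPM, and thalamus markers to 25.6 to 44.7 TPM against 21 to 29.8 TPM. Endothelial markers summed to 198 to 276 TPM against 146 to 242 TPM, mural cell markers to 77.4 to 103 TPM against 62.6 to 95.2 TPM and microglia markers to 43.2 to 59.3 TPM against 35 to 47.9 TPM. Thalamus, endothelial, mural and microglia sums each had 3 of these 4 libraries among their 4 highest, and radial glia and meningeal fibroblasts 2. Cortical neuron, choroid plexus and red blood cell sums each had 1, and ventral forebrain and oligodendrocyte precursor sums 0. Fabp7 alone held 1439 to 2504 TPM of the radial glia sums and Slc17a6 14.3 to 28.2 TPM of the thalamus sums. In every list the sums of the 4 libraries overlapped those of the other 11. The part of these markers in the neuropilin values was not tested.

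Beyond the receptors and ligands, a list of 49 signalling partners was read from the same fits, and 47 of them were tested. They comprised cytoplasmic mediators, small GTPases and their regulators, kinases and adhesion molecules of the receptor complexes. The limma fits called none in females, in males or between the saline groups. At an unadjusted p under 0.05 there were 4 of 47 in females, beside 4.51% of all genes, and 1 between the saline groups, beside 4.15% (0 without the library labelled saline male 12). By sign, in females 15 were higher and 32 lower with AVP, and the list's median was -0.06 beside -0.05 over all genes. In males 6 were higher and 41 lower, with a median of -0.13 beside -0.10, and without that library 8 and 39, with a median of -0.10. Dpysl2 (CRMP2), which links Sema3a signalling to microtubules, was 69.1 ± 2.89 TPM in AVP females and 84.1 ± 10.6 TPM in saline females, a log2 difference of -0.27 (limma, adjusted p = 0.999). Crmp1, of the same family and the most abundant of the 4 named partners, was 771 ± 150 and 915 ± 47 TPM in the same groups (adjusted p = 0.999).

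L1cam, the adhesion molecule that joins the Sema3a receptor complex, was 165 ± 61.8 TPM in AVP females and 204 ± 59.4 TPM in saline females, with an adjusted p of 0.999 by limma. In males it stood at 122, 147, 176 and 179 TPM with AVP and 257, 190, 256 and 252 TPM with saline. Those groups did not overlap, at a log2 difference of -0.62 that is given without a test and was -0.58 without the library labelled saline male 12. Over all genes tested, AVP males lay entirely below saline males in 6.54%. Fyn, a kinase in plexin signalling, was measured in the male groups at 154 ± 8.06 and 163 ± 13.2 TPM. Of 42 ligands and receptors from other guidance families (slits, netrins, ephrins and their receptors), 39 were tested and limma called none in any comparison, with 4 of 39 in females and 1 between the saline groups at an unadjusted p under 0.05, beside the same shares of all genes, and 0 between the saline groups without that library. Their median log2 difference was -0.02 in females and -0.14 in males, and -0.12 in males without that library.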

How the data were processed

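Dorsal forebrain mRNA libraries were trimmed with Trim Galore (version 0.4.1), quasi-mapped to GENCODE M16 transcripts (GRCm38) and quantified with kallisto (version 0.43.1), per the labels and the study's methods. The deposited table gives 1 value per transcript and library with a total of 1000000, and was read as TPM as the authors' kallisto run makes them, with no further scaling between libraries. Read counts per library were not used here and precision rests on the number of libraries.

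Gene values are sums over 133849 transcripts, joined through GENCODE M21 (GRCm38). For 404 transcripts no gene was found. A gene entered a comparison if 50% or more of its libraries reached 1 TPM, and the fit took log2(TPM + 0.5) into limma 3.58.1 (R 4.3.3), a mean-variance trend, treatment or sex as the only term and Benjamini-Hochberg adjustment over all genes. The threshold was 0.05. Sexes were analysed apart, as in the study's methods. Of 31 members, 30 passed the filter in each comparison. Plxnb3 did not. Members picked because their groups did not overlap have no exact permutation test here, since that choice fixes its p. Sleuth, the study's own tool, was not run. The scripts were tested on simulated data.

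The members, gene lists and tests were chosen with earlier results of these data known. Named were Plxna1, the 5 members of highest mean TPM, members whose groups did not overlap, and 4 signalling partners. Nrp2 and Sema7a were added after their values were seen. Alternatives were other scalings (quantile, median of ratios), filters, pseudocounts (0.1 and 1), an adjusted p of 0.1 and no trend. Further ones were the run of sample codes as a covariate, 1 fit of 15 libraries and leaving out each library. Protein-coding transcripts alone and length-weighted TPM were added after seeing the data. Figures were drawn with matplotlib 3.10.9. 1 sequence is not reported here.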

Additional observations from a re-analysis of the deposited data

Results flagged for a closer look

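In groups of 4 libraries, 93 combinations of gene and group were examined for a library far from the other 3, by Dixon's 95% limit, and 4 were found where chance alone gives about 4.65. Plxnb2 was 64.7 TPM in saline male 13 and 78.5 to 79.1 TPM in the other saline males. Without that library its log2 difference between saline females and saline males was -0.00401 in place of 0.07. Sema6d was 12.9 TPM in AVP male 1 and 16.4 to 17 TPM in the other AVP males. Sema5b was 19.2 TPM in saline male 5 and 14.8 to 15.4 TPM in the other saline males. Sema4b was 10.4 TPM in saline female 14 and 12.1 to 12.4 TPM in the other saline females. The 4 values come from 4 libraries.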

How the results depend on the processing

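No member passed the threshold in females or between the saline groups under any alternative run, the leaving out of each library included. The count of all genes past it moved between 0 and 6 in females (0 with all libraries), 0 and 6 in males (1 with all libraries) and 0 and 4 between saline groups (1 with all libraries) as single libraries were left out. It reached 6 without saline female 15 in females, 6 without AVP male 2 in males and 4 without saline female 15 between saline groups. Length-weighted TPM gave 1 gene in females. In males the count was 0 with 5 TPM in every library, a pseudocount of 1, the run covariate, 1 fit of 15 libraries and both added sums, and 2 without the trend. Between saline groups it was 0 with no filter, 5 TPM in every library, a pseudocount of 1, 1 fit of 15 libraries and both added sums. Of uncalled log2 differences, Fyn in females (-0.03) became 0.0349 under quantile normalization, 0.00133 under median-of-ratios scaling and 0.0367 with length weighting, and ran from -0.110 to 0.0831 as libraries were left out. Plxnb2 between saline groups (0.07) became -0.108 with coding transcripts and -0.0589 with length weighting, and ran from -0.00401 to 0.130. In females Plxnb2 ran from -0.0161 to 0.172 and Plxna3 from -0.486 to 0.114. Male Plxna1 ran from -0.58 to -0.47 and male Sema6c from -0.74 to -0.55, and the added sums changed both by more than their within-group SD, as the report gives. No paired analysis was possible because the labels do not tie a library to its litter. The causes were not tested. TPM give no depth and the study's average of mapped reads was not used, so which low values counting error limits was not estimated.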
